A study of Mus musculus with 29 samples.

Results

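Expression of hypoxia response and glycolysis genes was examined in neuroblastoma tumours and bone marrow of TH-MYCN mice. The list held 42 genes, 6 regulators of the hypoxia-inducible factors (HIF) with the HIF subunits themselves, 13 HIF targets and 23 genes of glucose transport, glycolysis and lactate handling. A gene was taken as measured where at least 1 probe set of the array was annotated to it and to no other gene, and its value was that of the probe set with the highest mean. This gave 39 of the 42, out of 18193 measured genes in all: 6 of 6 regulators, 12 of 13 HIF targets and 21 of 23 glycolysis genes. Bnip3l, Gpi1 and Eno1 were not analysed here.

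All mice were labelled as strain 129X1/SvJ with the TH-MYCN transgene, which drives MYCN from the tyrosine hydroxylase promoter in the sympathoadrenal lineage. The groups were 17 primary abdominal tumours from caspase-8 deficient mice, 7 such tumours from mice wild type for caspase-8, 3 total bone marrow samples from deficient mice and 2 from wild type mice. The labels do not give the age of the mice, the deleted part of the caspase-8 gene, the cells it was deleted in, or which samples share an animal. The p-values therefore measure only the spread between these samples, which may be technical. The series title concerns bone marrow metastasis, and the labels do not say which marrow samples held tumour cells. The number in each sample title places tumours in a higher series (10 deficient, 4 wild type) or a lower series (7 deficient, 3 wild type), and all marrow samples are in the higher one. No source used here says what the numbers stand for.

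The HIF transcription factors consist of an oxygen-sensitive alpha subunit, encoded by Hif1a or Epas1, and the stable partner Arnt. With oxygen present, prolyl hydroxylases of the Egln family mark the alpha subunit, and the Vhl protein directs it to degradation. With little oxygen, the dimer binds DNA at a short core motif and raises transcription of genes for glucose uptake, glycolysis, collagen modification, pH control and mitochondrial turnover, including Egln3 itself. Control of the alpha subunits is therefore mostly at the level of protein, which these arrays do not measure. In bulk tissue, fewer cells of a type and less RNA per cell cannot be told apart.

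Values were log2 expression after robust multi-array averaging, ranging from 1.87 to 14.4 over all probe sets, with array medians of 4.78 to 4.91. The sympathoadrenal genes Isl1 (11.4 to 12.6 in tumours, 2.75 to 3.99 in marrow) and Chgb (12.1 to 12.9 in tumours, 3.44 to 4.13 in marrow) separated the tissues as labelled, and so did the neutrophil genes Ngp (3.39 to 5.84 in tumours, 13.9 to 14.1 in marrow) and S100a9 (3.05 to 7.84 in tumours, 14.1 to 14.2 in marrow). Slc6a2 and Slc18a1, of the same sympathoadrenal list, were not higher in tumours. Casp8 was at 5.62 ± 0.44 (SD, n = 17) in deficient and 5.88 ± 0.57 (SD, n = 7) in wild type tumours, a difference that limma did not call (adjusted p = 0.9997). A probe set outside the deleted part would not check the genotype.

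The promoters of 5 members are shown because these genes formed the 3 pairs that varied most alike across the 24 tumours, as described further on. Each window runs from 250 bases before to 50 bases after the RefSeq transcript start (build GRCm38.p6), 5′ to 3′ on the gene's own strand. Capitals mark the HIF core motif in both its forms, ACGTG and GCGTG, on either strand.
Egln3 (chr12:54203825-54204124, minus strand): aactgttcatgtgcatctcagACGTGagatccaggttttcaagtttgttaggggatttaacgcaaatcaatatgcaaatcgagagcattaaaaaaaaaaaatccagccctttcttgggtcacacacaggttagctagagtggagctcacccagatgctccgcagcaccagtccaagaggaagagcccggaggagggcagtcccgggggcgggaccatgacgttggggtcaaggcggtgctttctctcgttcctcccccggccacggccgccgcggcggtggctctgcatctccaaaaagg
Bnip3 (chr7:138909457-138909756, minus strand): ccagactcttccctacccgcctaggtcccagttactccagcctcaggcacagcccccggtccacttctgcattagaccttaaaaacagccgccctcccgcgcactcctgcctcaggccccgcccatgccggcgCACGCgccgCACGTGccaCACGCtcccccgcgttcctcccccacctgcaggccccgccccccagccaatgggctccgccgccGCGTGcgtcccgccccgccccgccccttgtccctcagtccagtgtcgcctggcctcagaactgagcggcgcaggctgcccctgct
Ankrd37 (chr8:45999801-46000100, minus strand): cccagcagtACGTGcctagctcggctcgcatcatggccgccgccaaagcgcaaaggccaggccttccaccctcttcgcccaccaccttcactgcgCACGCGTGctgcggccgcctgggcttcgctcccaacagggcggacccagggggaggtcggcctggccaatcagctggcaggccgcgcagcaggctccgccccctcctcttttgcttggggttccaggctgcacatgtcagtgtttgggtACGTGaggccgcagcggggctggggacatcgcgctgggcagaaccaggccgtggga
P4ha1 (chr10:59323046-59323345, plus strand): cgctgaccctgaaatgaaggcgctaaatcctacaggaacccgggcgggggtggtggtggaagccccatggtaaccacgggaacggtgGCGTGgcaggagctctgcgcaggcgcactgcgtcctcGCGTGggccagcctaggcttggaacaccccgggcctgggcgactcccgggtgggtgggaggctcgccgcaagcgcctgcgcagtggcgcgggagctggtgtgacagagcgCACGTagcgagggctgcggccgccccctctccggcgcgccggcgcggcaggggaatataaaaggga
Pgam1 (chr19:41911621-41911920, plus strand): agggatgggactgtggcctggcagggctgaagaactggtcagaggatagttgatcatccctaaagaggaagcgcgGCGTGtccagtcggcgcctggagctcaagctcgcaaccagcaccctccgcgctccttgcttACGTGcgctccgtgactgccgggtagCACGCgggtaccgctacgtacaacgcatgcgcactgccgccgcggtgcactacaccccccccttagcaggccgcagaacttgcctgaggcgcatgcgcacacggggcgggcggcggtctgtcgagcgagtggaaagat

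The Bnip3 window held 5 such motifs, the others between 1 and 4, and in Bnip3 a pair of ACGTG matches on opposite strands overlapped at the E-box CACGTG. Of windows with ACGTG the share was 51.9% among the 52 windows available for 37 of the listed genes, against 22.9% among the 18109 windows of all measured genes and 19.6% among all 32851 windows. Either form was present in 76.9% of the listed genes' windows, against 54.6% of those of measured genes and 43.8% of all. The E-box, to which MYC family proteins bind, was present in 11.5% of the listed genes' windows, against 8.72% and 7.15%. The listed genes' windows were also richer in G and C, with a median of 61.8%, against 58.3% and 52.7%, and these shares take no account of that. Among HIF targets 7 of 13 windows (10 genes) held ACGTG, and among glycolysis genes 17 of 34 (22 genes). All these shares count windows, so a gene with several windows counts more than once. A match is a description of the letters and not a binding site.

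The first comparison asked whether tumours of deficient mice differed from those of wild type mice. Limma called no member at an adjusted p under 0.05, nor any other of the 18193 genes (0%). At an unadjusted limma p under 0.05, 1 of 39 members (2.56%) differed, against 3.20% of all genes in either direction and 1.26% lower in deficient tumours. That member was Bnip3, a mitochondrial protein of the outer membrane that promotes mitophagy. It ran from 7.76 through a median of 8.10 to 8.99 in deficient tumours, and from 8.05 through 8.38 to 9.60 in wild type tumours. Its log2 difference was -0.40 (SE 0.18, limma p = 0.035, adjusted p = 0.9997), and -0.23 without wild type tumour 6. The ranges overlapped, as they did for all 39 members.

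Mean values leaned lower in deficient tumours for 11 of 12 HIF targets and 16 of 21 glycolysis genes, with medians of -0.14 and -0.09, against 0.00 over all genes, of which 48.1% were lower. Egln3, the hypoxia-induced prolyl hydroxylase, differed by -0.69 (SE 0.36, 95% interval -1.43 to 0.06). Its signal was low, with a median of 4.68 over the 24 tumours, below the median of the arrays. Ankrd37, an ankyrin repeat protein and HIF target, differed by -0.38 (SE 0.19), and Pdk1, the kinase that holds pyruvate dehydrogenase inactive, by -0.41 (SE 0.24). The glucose transporter Slc2a1 differed by -0.34 (SE 0.23) and P4ha1, the catalytic subunit of collagen prolyl 4-hydroxylase, by -0.24 (SE 0.16). Without wild type tumour 5, Slc2a1 was at -0.17.

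A few members leaned the other way. P4ha2, the second collagen prolyl 4-hydroxylase catalytic subunit, differed by 0.28 (SE 0.23), the muscle-type phosphofructokinase Pfkm by 0.26 and the neuronal enolase Eno2 by 0.24. Leaving out single wild type tumours moved these values in both directions, and all stayed positive. The lowest and highest values for P4ha2 were 0.13 (tumour 5 omitted) and 0.37 (tumour 2 omitted). For Pfkm they were 0.04 (tumour 1 omitted) and 0.38 (tumour 6 omitted). For Eno2 they were 0.02 (tumour 7 omitted) and 0.49 (tumour 6 omitted). The mean of Eno2 over the 24 tumours was 4.83, at the median of the arrays. The myeloid hexokinase Hk3 differed by -0.30, and by -0.02 without wild type tumour 5, in which it was at 7.59. The 5 regulators other than Egln3 differed by no more than 0.04 to either side.

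**Figure D1:**
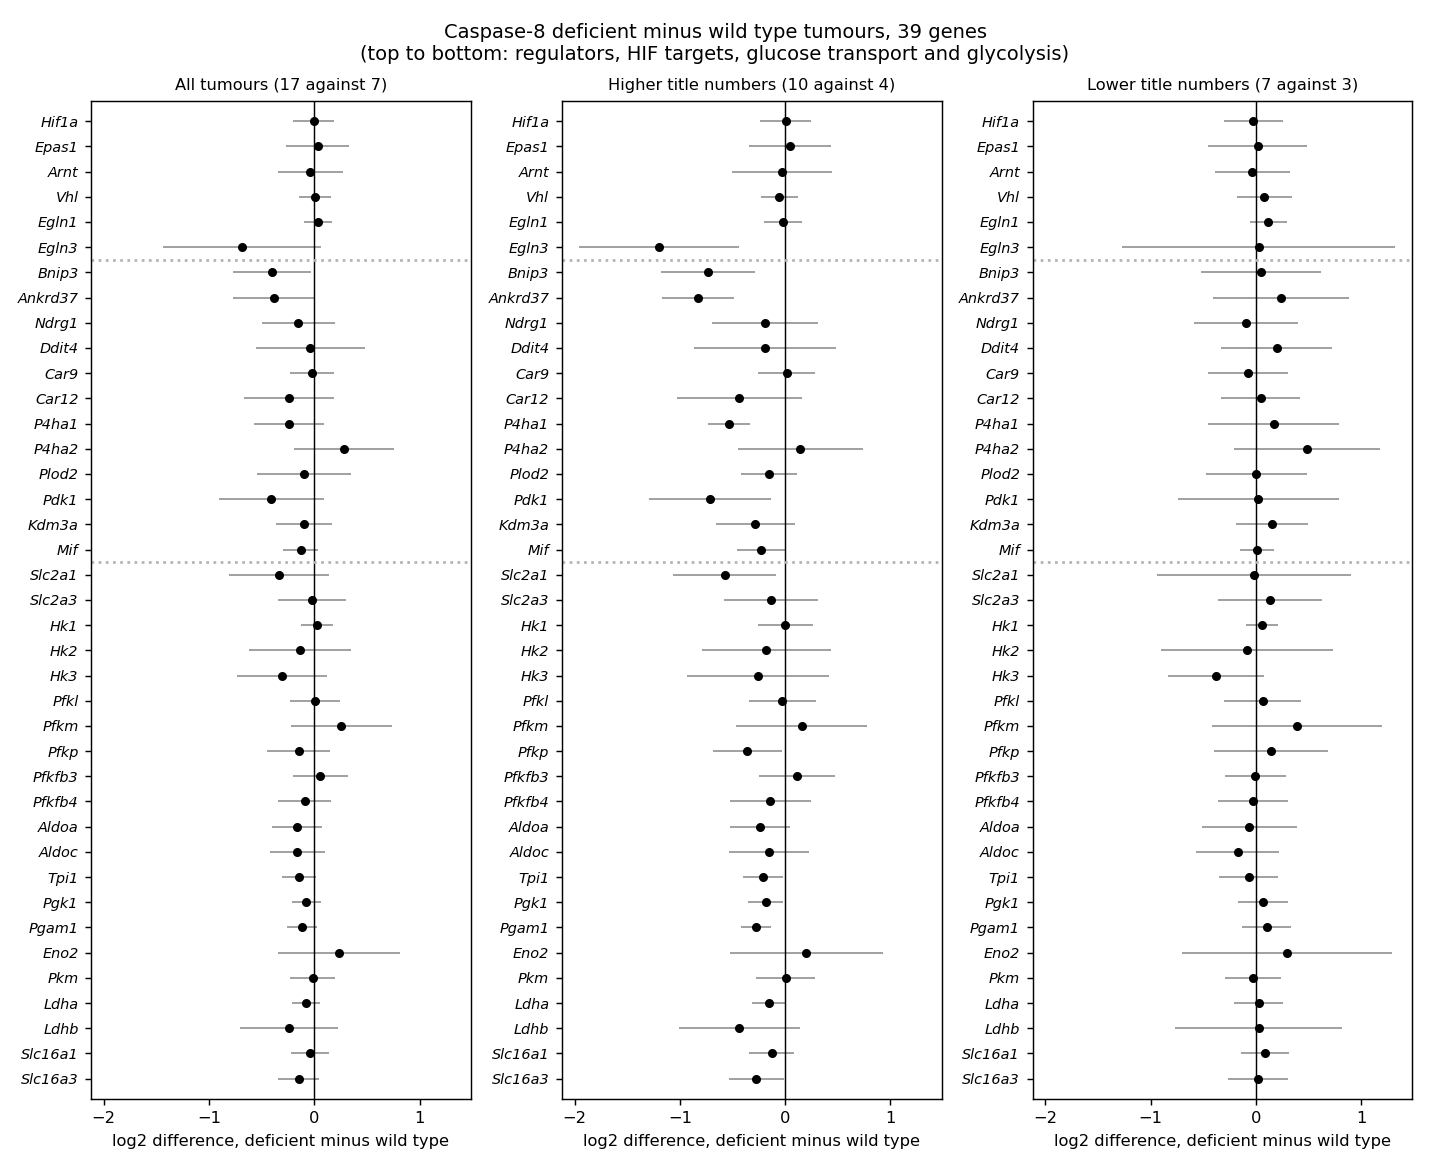
Log2 difference of 39 genes, caspase-8 deficient minus wild type, over all tumours (left), tumours of the higher title numbers (middle) and of the lower title numbers (right); points are limma estimates and lines 95% intervals, and dotted lines separate regulators, HIF targets and glycolysis genes. Egln3 lies at -0.69, -1.20 and 0.03 in the 3 panels, and Ankrd37 at -0.38, -0.83 and 0.24.

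Values were then read within each title series. An earlier look at these data had already given values by series, so the within-series values are not independent support. In the higher series, 11 of 39 members (28.2%) had an unadjusted limma p under 0.05, all of them lower in deficient tumours, against 2.69% of all genes lower and 7.59% in either direction. They were 4 of 12 HIF targets, 6 of 21 glycolysis genes and Egln3. No member and no other gene passed the adjusted test in these 14 tumours (0%), the lowest adjusted p being 0.62. In the lower series 0 of 39 members reached an unadjusted limma p of 0.05, against 1.09% of genes lower and 1.80% in either direction, and 0% of genes passed the adjusted test. The median difference was -0.25 for HIF targets in the higher series and 0.05 in the lower, and -0.15 and 0.03 for glycolysis genes, against 0.02 and -0.01 over all genes.

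P4ha1 ran from 7.01 through a median of 7.22 to 7.43 in the 10 deficient tumours of the higher series, and was at 7.60, 7.65, 7.70 and 7.9985 in the 4 wild type tumours. All 10 lay below all 4. The log2 difference was -0.53 (SE 0.09, limma p = 4.2e-05, adjusted p = 0.62). Pgam1, the glycolytic phosphoglycerate mutase, ran from 9.72 through 9.86 to 9.98 in the deficient tumours and was at 10.06, 10.10, 10.16 and 10.26 in the wild type tumours. It too was without overlap, at -0.27 (SE 0.07, limma p = 0.0010, adjusted p = 0.62). These 2 were the members that separated the genotypes in this way, where 0.0824% of all genes lay below without overlap. In the lower series P4ha1 differed by 0.17 and Pgam1 by 0.10, with overlap. P4ha1 was there at 0.02 without wild type tumour 3 and at 0.36 without wild type tumour 2, and Pgam1 at 0.06 without wild type tumour 3 and at 0.16 without deficient tumour 2.

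Ankrd37 ran from 5.54 through 5.82 to 6.39 in the deficient tumours of the higher series and was at 6.24, 6.53, 6.94 and 7.11 in the wild type tumours. The difference was -0.83 (SE 0.16, limma p = 1.1e-04), with 9 of 10 deficient tumours below all wild type tumours. Bnip3 ran from 7.76 through 8.06 to 8.68, against 8.32, 8.38, 9.02 and 9.60, with a difference of -0.73 (SE 0.21, limma p = 0.0033). Wild type tumours 5 and 6 were the high ones, and without tumour 6 the difference was -0.47.

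Egln3 ran from 3.75 through 4.55 to 5.20 in the deficient tumours of the higher series, against 4.30, 5.17, 6.19 and 6.62 in the wild type tumours. The median of these deficient tumours, 4.55, was below the median of the arrays. Wild type tumours 4 and 7 lay within the deficient range, and tumours 5 and 6 above it. The difference was -1.20 (SE 0.36), and it was -0.85 without wild type tumour 6 and -1.62 without wild type tumour 7. Pdk1 differed by -0.71 (SE 0.27) and Slc2a1 by -0.58 (SE 0.23), at -0.48 without wild type tumour 6 and -0.31 without wild type tumour 5. Among tumours of the lower series these genes differed by 0.24 (Ankrd37), 0.05 (Bnip3), 0.03 (Egln3), 0.02 (Pdk1) and -0.02 (Slc2a1), all within the spread between tumours.

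**Figure D2:**
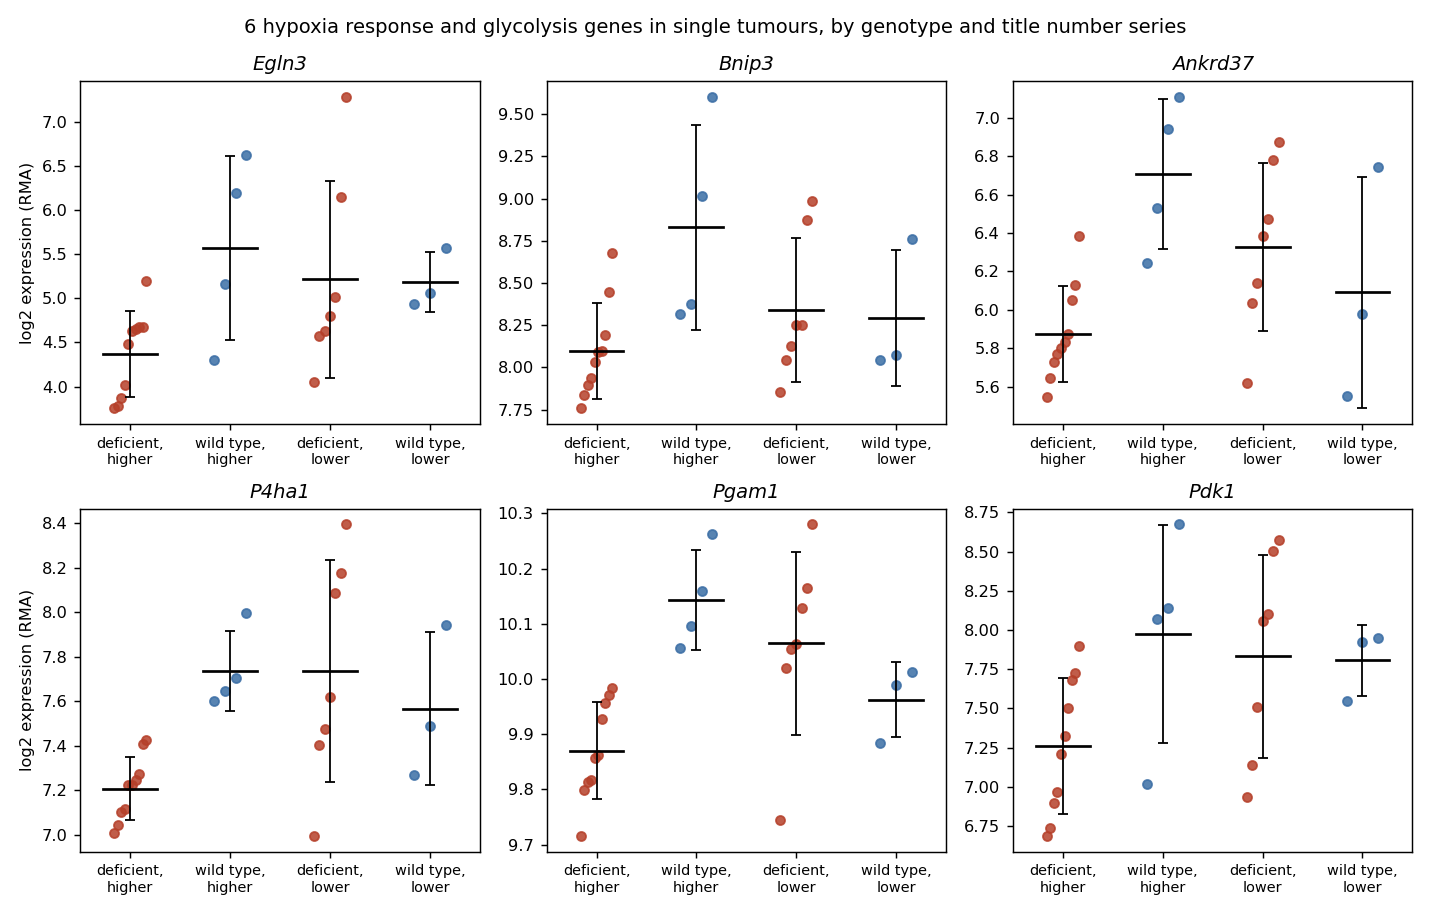
Log2 expression of Egln3, Bnip3, Ankrd37, P4ha1, Pgam1 and Pdk1 in single tumours by genotype and title number series; points are tumours, horizontal lines group means and bars 1 SD (n = 10, 4, 7 and 3 from left to right). P4ha1 and Pgam1 of the 10 deficient tumours in the higher series lie below those of the 4 wild type tumours, while the groups of the lower series overlap.

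The test of the difference between the series did not pass adjustment for any gene (0%). At an unadjusted limma p under 0.05, 4 of 39 members (10.3%) had a lower genotype difference in the higher series, against 1.90% of all genes lower and 5.13% in either direction. They were Pgam1 (-0.38, SE 0.11, limma p = 0.0031), Ankrd37 (-1.07, SE 0.33, limma p = 0.0034), P4ha1 (-0.70, SE 0.27, limma p = 0.018) and Bnip3 (-0.78, SE 0.34, limma p = 0.033), each with an adjusted p of 0.92. For Egln3 the value was -1.22 (95% interval -2.65 to 0.20).

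Other features of the tumours moved with this pattern. In the higher series all 14 endothelial markers had higher means in deficient tumours, 10 at an unadjusted limma p under 0.05, while of all genes 45.0% had lower means and 4.90% were higher at that p. The endothelial list mean ran from 5.22 to 6.56 in deficient and from 4.79 to 5.78 in wild type tumours. Of 10 chromaffin markers 7 had lower means, 3 at that p against 2.69% of all genes, and the list mean ran from 7.84 to 8.70 in deficient and from 8.28 to 9.20 in wild type tumours. RNA quality, read as the 3' minus 5' signal of control probe sets, averaged 0.80 ± 0.20 (SD, n = 10) in deficient and 0.53 ± 0.08 (SD, n = 4) in wild type tumours. With that signal as a covariate, P4ha1 was at -0.42, Pgam1 at -0.21, Ankrd37 at -0.80, Bnip3 at -0.86 and Egln3 at -1.38. The part of endothelial and chromaffin cells in these differences was not tested.

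HIF pathway genes beyond the 42 were read from lists of the same kind. Of 27 measured other HIF pathway genes, 7 had an unadjusted limma p under 0.05 on the lower side in deficient tumours of the higher series and 1 on the higher side, with a median of -0.14, against 2.69% of all genes on the lower side and 7.59% on either. The vasodilator peptide gene Adm differed by -1.42, the glycogen branching enzyme gene Gbe1 by -0.52, the angiogenic factor Vegfa by -0.52 and Fam162a by -0.26, these being the 4 of smallest p. Over all tumours, where 3.20% of all genes had such a p, so did 1 of these 27, Edn1 at 0.32, followed by Higd1a at 0.18, Adm at -0.63 and Fam162a at -0.14. A list of 19 further genes held glycolytic genes together with genes of gluconeogenesis such as Fbp1, Fbp2 and Pck1. Of these 19, 2 had such a p over all tumours, Fbp2 at 0.22 and Pgk2 at -0.16. Gapdhs at -0.15 and Bpgm at 0.44 followed. In 20 genes of pyruvate oxidation and the citric acid cycle and in 6 of the pentose phosphate pathway there were none, with medians of 0.00 in both. In the citric acid cycle list Sucla2 was at 0.09, Mdh2 at -0.04, Dld at 0.08 and Ogdh at 0.09, and in the pentose phosphate list Taldo1 was at 0.07, Rpe at 0.10, Pgd at -0.04 and Pgls at -0.03. None of these genes passed the adjusted test.

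Between the title series, with genotype as a covariate, Plod2 was the member called, where 7.90% of all genes were. Plod2, a lysyl hydroxylase that prepares collagen for cross-linking, ran from 7.14 to 7.83 in the 14 tumours of the higher series. In the 10 of the lower series it ran from 7.88 to 8.98. The share of all genes with such separate ranges between the series was not counted. Plod2 was lower in the higher series by 0.84 on the log2 scale (limma difference -0.84, SE 0.11, adjusted p = 1.7e-05). Ddit4, an inhibitor of mTOR signalling, was at -0.59 (adjusted p = 0.072) and Hif1a at 0.21 (adjusted p = 0.100), and each was past the threshold under some alternatives. The median difference was -0.25 for HIF targets and -0.01 for glycolysis genes, against 0.02 over all genes.

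Levels in single tumours were then described as deviations from each gene's mean over the 24 tumours. The mean deviation of the 12 HIF targets was highest in deficient tumour 5 (0.61), deficient tumour 3 (0.50) and wild type tumour 6 (0.48), and lowest in deficient tumours 12 (-0.36), 16 (-0.35) and 13 (-0.28). The 10 deficient tumours of the higher series took ranks 15 to 24 of 24. The deficient tumours of the lower series took both the first and the second rank, so that genotype alone did not order the tumours. In deficient tumour 3, Egln3 stood at 7.29 and Slc2a1 at 8.93. In deficient tumour 5, Eno2 stood at 6.22 and Plod2 at 8.98. In wild type tumour 6, Bnip3 stood at 9.60 and Pfkfb4, an enzyme that sets the level of a phosphofructokinase activator, at 7.39. In wild type tumour 5, Slc2a1 stood at 9.14 and Ankrd37 at 7.11, while P4ha2 stood at 5.60, the lowest of the 24.

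**Figure D3:**
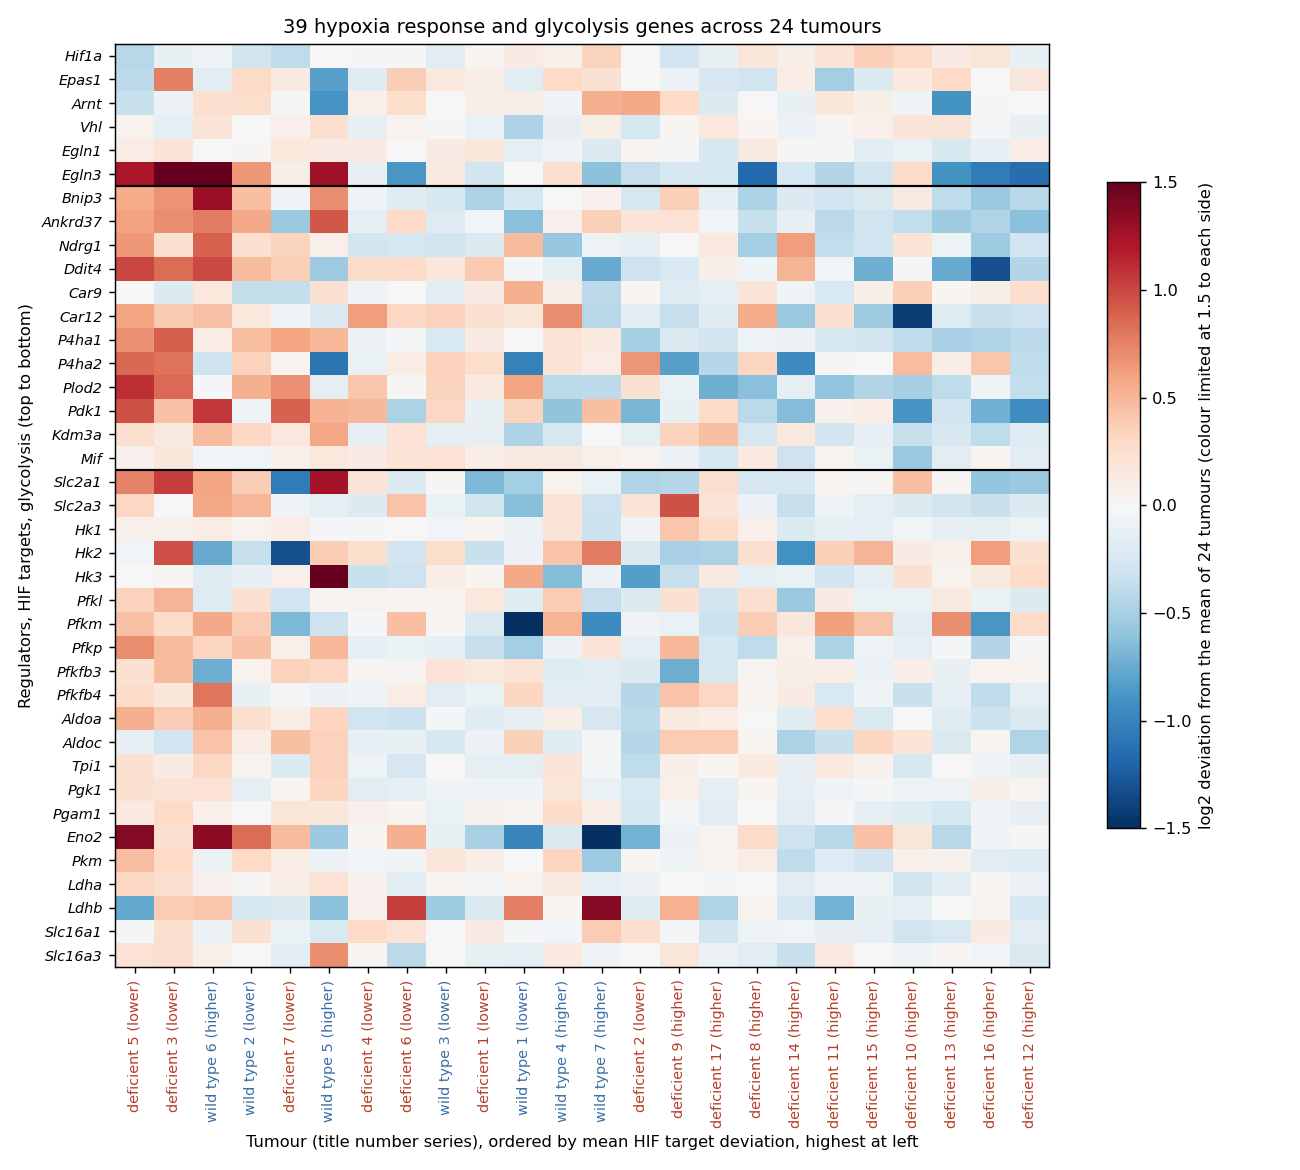
Log2 deviation of 39 genes (rows) from their mean over 24 tumours (columns), with tumours ordered by the mean deviation of the 12 HIF targets, highest at left; red is above and blue below the mean. The deficient tumours of the higher title numbers (ranks 15 to 24) fill the right end.

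The mean levels of HIF targets and glycolysis genes varied together across tumours, single pairs less closely. The mean deviation of the 12 HIF targets and that of the 21 glycolysis genes had a Pearson r of 0.73 and a Spearman rho of 0.55 over 24 tumours, with r of 0.75 within the higher series and 0.92 within the lower, and 0.55 without deficient tumours 3 and 5, the pair farthest from the median. All tumours share 1 array platform and normalization, and these values are a description. Over the 252 pairs of a HIF target with a glycolysis gene the median r was 0.22, and 16.3% of the pairs exceeded 0.5. The mean of the 19 other glycolytic and gluconeogenic genes had an r of -0.34 (rho = -0.45) with that of the HIF targets. Within the higher and lower series this r was -0.42 and -0.04, and the list mean was low, at 5.18 in tumours. The closest pairs were Egln3 with Bnip3 (r = 0.86), P4ha1 with Pgam1 (r = 0.84) and Bnip3 with Ankrd37 (r = 0.81), the genes whose promoters are printed above. With genotype and title series means removed these pairs stood at 0.86, 0.75 and 0.73. Bnip3 also followed the platelet-type phosphofructokinase Pfkp (r = 0.80) and the aldolase Aldoa (r = 0.78).

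Coherence was uneven within the list. Among the 66 pairs of HIF targets the median r was 0.35 and 24.2% exceeded 0.5, against 0.01 and 2.64% over all pairs of measured genes. With genotype and title series means removed, the HIF target median was 0.09 and 18.2% exceeded 0.5. P4ha1 (r = 0.79), Ddit4 (0.70), Bnip3 (0.69), Ankrd37 (0.64), Pdk1 (0.64) and Plod2 (0.64) followed the mean of the other HIF targets, whereas Car9, a membrane carbonic anhydrase, did not (-0.31) and was at 3.20 to 4.12, below the median of the arrays. P4ha2 stood at 0.05, and at -0.52 and 0.40 within the higher and lower series. Plod2 stood there at 0.27 and 0.80, Ddit4 at 0.45 and 0.92, and P4ha1 at 0.68 and 0.82. Bnip3 stood at 0.85 and 0.89, Ankrd37 at 0.83 and 0.51, and Pdk1 at 0.69 and 0.47. Of the glycolysis genes, Ldha (0.72), Aldoa (0.70), Pgam1 (0.65) and Pfkp (0.65) followed the HIF target mean, and Hk2 (-0.17), Ldhb (-0.02) and Hk3 (0.05) did not. Of the regulators, Egln3 (0.83) and Egln1 (0.50) followed it, while the transcript of Hif1a ran opposite (-0.61) and those of Epas1 (0.01), Arnt (-0.01) and Vhl (0.03) stood near 0 over all tumours. Within the higher and lower series Hif1a stood at -0.32 and -0.68, Egln3 at 0.84 and 0.85, and Egln1 at 0.23 and 0.42. Vhl stood there at 0.40 and 0.41, Arnt at 0.07 and -0.73, and Epas1 at -0.37 and 0.10.

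**Figure D4:**
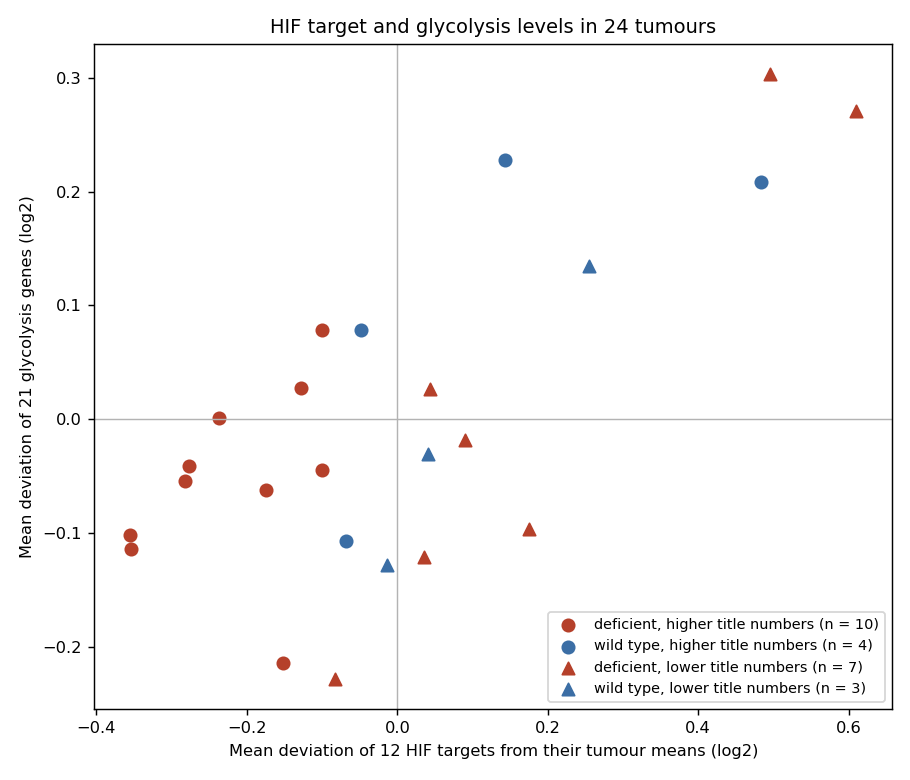
Mean log2 deviation of 12 HIF targets (horizontal) and 21 glycolysis genes (vertical) from their means over 24 tumours; each point is a tumour, with colour for genotype and shape for title number series. Pearson r is 0.73 over all tumours, and the deficient tumours of the higher series all lie left of 0.

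Outside the list, the genes most like the HIF target mean across the 24 tumours were Mast3 (r = 0.87), Ero1a (0.85), Lamb3 (0.85), Dhx32 (0.85), Fam219a (0.84), Esyt3 (0.83), Maff (0.83), Dusp4 (0.83), Fndc3a (0.81) and Srxn1 (0.81). In all, 130 of 18154 genes (0.716%) exceeded an r of 0.7. Ero1a, an oxidase of disulfide bond formation in the endoplasmic reticulum, belongs to the list of other HIF pathway genes. The next highest in that list were Rora (0.80) and Bhlhe40 (0.70). The HIF target mean also moved with the means of the chromaffin (r = 0.71) and sympathoadrenal (0.44) markers. Both lists hold Chga, Chgb, Slc18a1 and Dbh, so these are not separate observations. Within the higher and lower series r was 0.86 and 0.68 for chromaffin and 0.73 and 0.34 for sympathoadrenal markers. The HIF target mean ran opposite to the means of the erythroid (-0.57), cell cycle (-0.49), adrenal cortex (-0.44) and endothelial (-0.33) markers. The erythroid list mean was 4.44 in tumours, below the median of the arrays. That of the adrenal cortex list was 4.95 in tumours, close to the median of the arrays, and 5.15 in marrow. Its r is therefore no measure of cortex content. The part of these lists in the pattern was not tested.

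The next comparison set tumours against bone marrow, with both genotypes weighted equally. Of 39 members 30 were called by limma, 18 higher and 12 lower in tumours, where 34.2% of all genes were called higher and 42.2% lower. HIF targets were called higher for 7 and lower for 2 of 12, glycolysis genes higher for 7 and lower for 9 of 21, and regulators higher for 4 and lower for 1 of 6. The median difference was 0.82 for HIF targets and -0.23 for glycolysis genes, against -0.10 over all genes. Without overlap between the tissues, 10 members lay above and 6 below marrow, where 20.9% and 16.9% of all genes did. The share of members called in either direction was 76.9%, near that of all genes.

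Of the 39 members, the collagen-modifying enzymes Plod2 and P4ha2 and the carbonic anhydrase Car12 had the largest positive differences with the probe set of highest mean. Plod2 ran from 7.14 through a median of 7.79 to 8.98 in tumours and was at 3.28, 3.91, 4.04, 3.93 and 3.28 in marrow, a difference of 4.21 (SE 0.24, limma adjusted p = 1.1e-15). P4ha2 ran from 5.60 through 6.80 to 7.56 in tumours, against 3.81, 3.58, 3.77, 3.92 and 3.24 in marrow, a difference of 2.98 (SE 0.25). Car12 ran from 6.42 through 7.88 to 8.53 in tumours, against 4.59, 4.54, 3.66, 3.87 and 4.06 in marrow, a difference of 3.77 (SE 0.23). For each of these genes every tumour lay above every marrow sample, and the marrow values lay below the median of the arrays, so no fold is given. With the mean over all probe sets of a gene, Car12 was at 1.16 and Plod2 at 2.80, both still called. Fibroblast markers, which include collagen genes, were called higher in tumours for 7 of 10 and lower for 1, and their part in the collagen enzymes was not tested.

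Other HIF targets rose less. Mif, a cytokine and tautomerase, averaged 12.47 ± 0.19 in tumours (SD, n = 24) and 10.50 ± 0.21 in marrow (SD, n = 5), a difference of 1.98, but 0.43 with the mean over its probe sets. Bnip3 rose by 1.04 and P4ha1 by 0.91, although the P4ha1 value of deficient marrow 3, at 8.66, exceeded all tumours, and the difference was 1.30 without that sample. Ankrd37 was at 0.58, a call lost without wild type marrow 2 (0.36) or deficient marrow 2 (0.49), with array weights (0.56), with each array centred on its median (0.29) and with quantile normalization (0.31). Car9 was lower in tumours by 1.21 on the log2 scale (-1.21) at low signal in both tissues. Pdk1 was called lower (-0.72), but its probe sets disagreed, with 1 at 0.72 and the mean of all at -0.12, not called. Its call was also lost without wild type marrow 1 (-0.55). Ddit4 was at 0.73 and not called, as its wild type marrow samples 1 and 2 stood at 8.45 and 5.23. Leaving out the first gave 1.54, which was called, and leaving out the second gave -0.07. Ndrg1 (0.33) and the histone demethylase Kdm3a (-0.20) were not called.

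Among the regulators, Egln1, the main prolyl hydroxylase in normal oxygen, averaged 8.91 ± 0.14 in tumours and 7.60 ± 0.06 in marrow (SD, n = 24 and n = 5), a difference of 1.30 (SE 0.07) without overlap. Egln3 was lower in tumours, at 4.92 ± 0.90 against 6.58 ± 0.26 in marrow, a difference of -1.49 (SE 0.39), with deficient tumour 3 above and 22 tumours below all marrow samples. Its median in tumours, 4.68, was below the median of the arrays. Hif1a was higher by 0.69. Epas1 (0.49) and Arnt (0.40) were called too, but neither call held when probe sets were averaged (0.19 and -0.08) or arrays centred on their median (0.20 and 0.11). Vhl was at -0.02.

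Isoenzymes of 1 step had unlike differences between the tissues. Of the hexokinases, which trap glucose in the cell, Hk3 ran from 4.87 through 5.65 to 7.59 in tumours and was at 9.60, 9.44, 8.88, 8.81 and 10.21 in marrow, a difference of -3.65 (SE 0.25, limma adjusted p = 4.9e-14). Hk1 was lower by 1.65 on the log2 scale (-1.65), and Hk2 was at -0.80, a call lost without wild type marrow 2 (-0.54) and with array weights (-0.73). Of the phosphofructokinases, which commit sugar to glycolysis, Pfkp was higher (1.42), Pfkm lower (-1.09), and the liver-type Pfkl at 0.52, not called with median centring (0.23), quantile normalization (0.22) or the mean of its probe sets (0.12). The log2 ratio of Pfkp to Pfkm was higher by 2.40 in tumours, without overlap. Ratios of Hk2 to Hk3, Pfkl to Pfkm, Pfkfb3 to Pfkfb4 and Egln1 to Egln3 did not overlap either. Those of Hk1 to Hk3, Slc2a1 to Slc2a3, Ldha to Ldhb, Slc16a1 to Slc16a3 and P4ha1 to P4ha2 overlapped. Of single genes, 37.8% did not overlap between the tissues. Of the bifunctional enzymes that set the level of a phosphofructokinase activator, Pfkfb4 was lower (-2.15), and Pfkfb3 was at 0.13, with its sign turned by rescaling. The glucose transporter Slc2a3 was lower (-1.91, and -1.17 with its probe sets averaged) and Slc2a1 not called (-0.24).

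The enzymes of the lower part of the pathway differed in both directions. Eno2, at 4.83 ± 0.66 in tumours and 3.33 ± 0.14 in marrow, was higher by 1.47. Its mean lay at the median of the arrays in tumours and below it in marrow. The pyruvate kinase Pkm was higher by 0.96, the triosephosphate isomerase Tpi1 by 0.85 and the lactate dehydrogenase Ldha by 0.60, each without overlap. Median centring lowered these to 0.67, 0.56 and 0.31, all still called. Pgam1 (0.22) and Pgk1 (-0.23), the phosphoglycerate kinase, were called with small differences, the first turning to -0.07 with each array centred on its median and the other not called without wild type marrow 2. Aldoa (0.18), Aldoc (-0.22) and Ldhb (-0.44) were not called, although Ldhb was with median centring (-0.73) or quantile normalization (-0.70). The lactate transporter Slc16a1 was lower (-1.31), and Slc16a3 was too (-0.66), at a signal of 3.40 ± 0.22 in tumours and 4.11 ± 0.11 in marrow, below the median of the arrays.

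**Figure D5:**
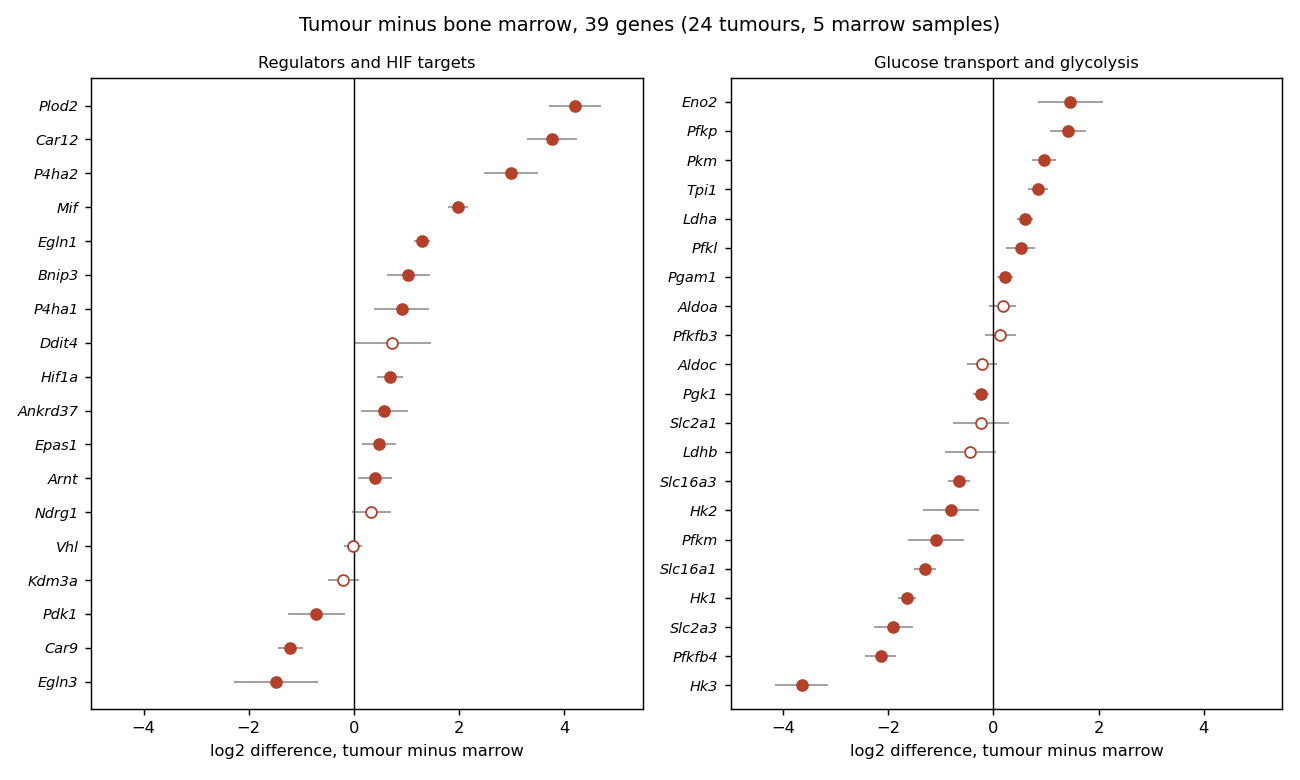
Log2 difference between 24 tumours and 5 marrow samples for the 18 regulators and HIF targets (left) and 21 glycolysis genes (right); points are limma estimates, lines 95% intervals, and filled points passed an adjusted p of 0.05. Plod2 (4.21) and Hk3 (-3.65) lie at the ends.

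Of the 30 members called, 22 kept their call and direction under each of the alternatives run, 13 of them higher and 9 lower in tumours. The other eight were Epas1, Arnt, Ankrd37, Pdk1, Hk2, Pfkl, Pgk1 and Pgam1. Centring each array on the median of its gene values, rather than of all its probe sets, moved the median of all genes to -0.39. There 4711 genes were called higher and 10602 lower, and the members split into 13 higher and 16 lower. Quantile normalization gave 14 higher and 16 lower members. Under both, 5 glycolysis genes were higher and 11 lower. The 12 neutrophil markers, at a list mean of 3.62 to 4.97 in tumours and 11.9 to 12.2 in marrow, were all called lower in tumours, as were 8 of 9 erythroid markers, and their part in the lower values of Hk3, Slc2a3, Pfkfb4 and Hk1 was not tested.

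Neighbouring pathways were uneven between the tissues, where 34.2% of all genes were called higher in tumours and 42.2% lower. Of 20 genes of pyruvate oxidation and the citric acid cycle, 18 were called higher in tumours and 2 lower, with Mdh2 at 1.07 and Dlat at 1.03, and Mpc1 at -0.64 and Ogdh at -0.53. Of 6 pentose phosphate genes 4 were called lower, led by Taldo1 (-1.94) and Pgd (-1.67), and 1 higher (Tkt, 0.69). Of 27 other HIF pathway genes 14 were called higher, among them Arnt2 (6.46), Adm (3.28) and Vegfa (1.86), and 6 lower, among them Selenbp1 (-3.13) and Gbe1 (-1.49). Of the 19 other glycolytic and gluconeogenic genes 13 were called lower, among them Bpgm (-3.49) and Fbp1 (-3.38), and 2 higher.

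In bone marrow no member was called between 3 deficient and 2 wild type samples, where 0.0220% of all genes were, and 0 of 39 reached an unadjusted limma p of 0.05, against 4.05% of all genes. P4ha1 had the largest difference, 0.97 (SE 0.66), and stood at 6.45, 6.24 and 8.66 in deficient and 5.76 and 6.52 in wild type marrow. It was 0.20 without deficient marrow 3. The sex-linked gene Xist stood at 11.6 to 12.2 in deficient and 5.11 to 6.20 in wild type marrow, so sex and genotype cannot be told apart there. The genotype difference in tumours did not differ from that in marrow for any member after adjustment, where 0.319% of all genes were called. At an unadjusted limma p under 0.05, 1 of 39 members differed (P4ha1, -1.21, SE 0.51), against 7.83% of all genes.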

How the data were processed

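RNA from 29 mouse samples was hybridised to Affymetrix 3' expression arrays, 1 per sample. RNA came from a Trizol extraction and was amplified over a pair of cycles, per the labels' protocols. The authors deposited log2 values made with RMA in Partek 6.6, per the submitters' processing notes. Quantile normalization within RMA removes shifts common to most genes, and low signals are compressed. The number of arrays limits the precision. No pair of arrays held identical values.

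Of 45101 probe sets, 34945 had 1 gene symbol, 932 several and 9160, the 64 controls aside, none listed. The probe set of highest mean stood for each of 18193 genes, and 25 of the 39 members had several. Each comparison used a two-sided limma test (version 3.58.1, R 4.3.3) on unfiltered values, with Benjamini-Hochberg adjustment over all genes and calls made under 0.05. Tissue was tested in a model of all 4 groups, the rest within tumours, title series or marrow. The fits were first tested on simulated data. Promoter windows came from RefSeq (GRCm38.p6). Protein sequences were not analysed here. Figures were drawn with matplotlib 3.10.9.

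The members and the lists were chosen, and the title series read apart, with earlier results of these data known. The text names all measured members, the 10 genes most like the HIF target mean and, in each pathway list, the 4 of smallest p where none was called, with Rora and Bhlhe40 chosen after their values were seen. Where many genes of a list were called, only those with the largest differences are named. The alternatives averaged probe sets, required a mean log2 value of 5, rescaled or weighted arrays, changed the variance model, added RNA quality or title series as a term, or left out samples. Median centring and the added quantile normalization were applied to the gene values of each array.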

Additional observations from a re-analysis of the deposited data

Results flagged for a closer look

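In the 7 wild type tumours, 3 of 39 members had 1 tumour far from the rest, by a gap test that chance meets in about 1 in 20 groups. That number is not far above this rate. The deficient tumours and the marrow samples were not put to the test. In wild type tumour 5, Epas1 stood at 8.62 where the next lowest was 9.26, Arnt at 6.14 where the next lowest was 6.98, and Slc16a3 at 4.10 where the next highest was 3.55. The same tumour had the highest Slc2a1, Hk3 and Ankrd37 of its group, and the lowest endothelial list mean of the 24 tumours, 4.79. No cause was tested.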

How the results depend on the processing

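No member was called between genotypes in tumours, in either title series, in their interaction, in marrow or in the tissue interaction under any alternative run. The median of the HIF targets ran from -0.18 to -0.12 with 1 tumour left out, from -0.38 to -0.23 in the higher series, from 0.0065 to 0.16 in the lower, from -0.57 to -0.27 for the interaction, from -0.31 to -0.20 between series, from -0.11 to 0.19 in marrow and from 0.63 to 0.95 between tissues. For glycolysis genes these ranges were -0.12 to -0.05, -0.22 to -0.12, -0.041 to 0.064, -0.23 to -0.09, -0.056 to 0.027, -0.061 to 0.085 and -0.25 to -0.19. Between series the glycolysis median turned to 0.025 with median centring, 0.0097 with quantile normalization and 0.0011 with the RNA quality covariate, and in marrow to 0.00099 with quantile normalization. Between tissues it was -0.52 with median centring, and that of HIF targets 0.53, and 0.57 with quantile normalization. Members called between series numbered 2 with median centring or the covariate, 4 with array weights, and 1 to 2 with a tumour left out. In the lower series Egln3 turned to -0.011 and Slc2a1 to 0.075 with the mean of probe sets, Pdk1 to -0.081 with array weights, and Slc2a1 to 0.015 with centring, 0.013 with quantile normalization and 0.040 with the covariate. With 1 tumour left out there, Bnip3 ran from -0.075 to 0.28, Ankrd37 from -0.032 to 0.56, Egln3 from -0.32 to 0.22, Pdk1 from -0.11 to 0.17 and Slc2a1 from -0.25 to 0.19. Between tissues Arnt turned to -0.075 and Pfkfb3 to -0.21 with the mean of probe sets, Pfkfb3 to -0.16, Aldoa to -0.11 and Pgam1 to -0.067 with centring, Pfkfb3 to -0.18 with quantile normalization, and Vhl to 0.062 with tumours of the higher series alone. With 1 sample left out, Ddit4 ran from -0.070 to 1.54, Pfkfb3 from -0.018 to 0.27 and Vhl from -0.052 to 0.023. Over all genes, calls were 2 in marrow with the mean of probe sets or the low-signal filter, 9170 between tissues with that filter (12589 to 13944 with 1 sample left out), and 19, 124 and 13 for the tissue interaction with the filter, quantile normalization and array weights (32 to 422). With 1 sample left out they were 0 to 1 in the lower series and for the interaction of genotype and series, and 1033 to 1560 between series. The median r among HIF targets was 0.086 with genotype and series means removed, 0.21 in the higher series and 0.24 without 2 tumours. In the lower series HIF targets with glycolysis genes stood at 0.40 and glycolysis genes among themselves at 0.36. Median centring alone split the calls between series into 1255 higher and 413 lower, against 798 and 640. The cause of these shifts was not tested. In exact permutation of the genotype labels (346104 splits of the tumours), 0 genes passed adjustment and 596 had p under 0.05, Bnip3 at 0.0437. No paired analysis was possible because the labels do not say which samples share an animal.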
